A study of Mus musculus with 6 samples.

Results

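The type I interferon response genes are a set of 39 genes listed by name, and all 39 were found among the 22788 genes of the expression table. They were read in B cells of mice lacking PP2Aa, the scaffold on which a major serine/threonine phosphatase is assembled, and in wild-type (WT) B cells, with 3 libraries in each group. The PP2Aa-deficient mice carried a Cre recombinase driven in the B lineage, with both copies of Ppp2r1a floxed. The WT mice are labelled wild type, with neither allele named, and both groups have a C57BL/6 background and an age of 8 weeks. The labels give spleen as the tissue, whereas their protocols describe cells washed from the peritoneal cavity. No label says whether each library came from its own mouse, so a p-value measures the spread between these libraries, which may be technical.

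Type I interferons are secreted proteins that bind a receptor made of IFNAR1 and IFNAR2 on nearly every cell. The receptor acts through the kinases JAK1 and TYK2 to form a complex that includes STAT2 and IRF9 and binds the interferon-stimulated response element in front of its target genes. The targets include sensors of foreign nucleic acid, regulators of the response itself and effectors that block viruses. In B cells the response is known to lower the threshold for activation and for antibody secretion. The members were placed in 3 roles, with 10 sensors, 11 genes of signalling and regulation and 18 effectors.

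The response element was looked up in RefSeq promoters of GRCm38.p6, which cover the 250 bases before a gene's start and the 50 after it. Of the 39 members, 29 had an entry. The motif searched was GAAA-NN-GAAA written without breaks, where N is any base, the core of the response element, on either strand and with overlapping matches counted. It was present for 13 of the 29 members, against 3.99% of 27025 genes with a promoter entry. By role, 5 of 7 sensors, 2 of 8 signalling genes and 6 of 14 effectors held a match. A match is only a run of letters, and the absence of one says nothing about binding. The windows of Oas3, Isg15, Bst2 and Oasl1 are shown because their genes recur in the results, as the 250 bases before the start, read along the gene, with matches in capitals.
Oas3 (chr5:120777660-120777909, minus strand): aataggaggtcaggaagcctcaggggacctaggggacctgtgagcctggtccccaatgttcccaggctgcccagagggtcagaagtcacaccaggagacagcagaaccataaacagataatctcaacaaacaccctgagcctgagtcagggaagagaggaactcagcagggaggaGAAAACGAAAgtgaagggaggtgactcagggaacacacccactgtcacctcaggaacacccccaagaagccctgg
Isg15 (chr4:156200819-156201068, minus strand): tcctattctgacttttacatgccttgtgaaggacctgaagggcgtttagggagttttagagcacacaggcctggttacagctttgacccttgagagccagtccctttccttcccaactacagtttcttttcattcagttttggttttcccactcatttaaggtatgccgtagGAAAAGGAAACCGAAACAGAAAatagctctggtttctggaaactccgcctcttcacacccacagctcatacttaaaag
Bst2 (chr8:71537473-71537722, minus strand): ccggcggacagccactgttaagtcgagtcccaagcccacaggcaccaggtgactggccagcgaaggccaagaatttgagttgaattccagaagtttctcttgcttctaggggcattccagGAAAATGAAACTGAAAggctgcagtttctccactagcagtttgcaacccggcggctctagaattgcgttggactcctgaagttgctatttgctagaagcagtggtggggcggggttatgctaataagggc
Oasl1 (chr5:114922990-114923239, plus strand): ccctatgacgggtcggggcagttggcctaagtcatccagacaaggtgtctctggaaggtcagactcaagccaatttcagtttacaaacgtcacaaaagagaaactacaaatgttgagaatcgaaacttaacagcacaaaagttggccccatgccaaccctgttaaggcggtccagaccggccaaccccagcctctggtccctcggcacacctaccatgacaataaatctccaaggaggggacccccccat
Oas3 held 1 match, which begins 75 bases before the start. Isg15 held 3 overlapping matches, beginning 78, 72 and 66 bases before the start, and Bst2 held 2, beginning 130 and 124 bases before it. The bases just after the listed start of Bst2 were found in no GENCODE M21 transcript of that gene, unlike those of Oas3, Isg15 and Oasl1. The distances given for Bst2 rest on that start. Oasl1 held no match in this window. Eif2ak2 had its match 19 bases after the start; its window is not shown.

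Values are FPKM, a fragment count corrected for the length of the transcript and for the depth of each library. Relative depth, read from the steps of low values, ranged from 0.976 to 1.18 in the PP2Aa-deficient libraries and from 1.00 to 1.76 in the WT libraries, about 2010000 to 3620000 fragments. Ppp2r1a, the targeted gene, was at 31.3, 56.2 and 28.2 FPKM in PP2Aa-deficient libraries and at 85.7, 85.4 and 83.7 FPKM in WT libraries, a whole-gene value that includes any transcript left outside the deleted part. Its log2 change was -1.18 (SE 0.23, limma adjusted p = 0.168), and without PP2Aa-deficient replicate 2 it was -1.48 and passed the test (limma adjusted p = 0.00555). Among B cell markers, Pax5, the transcription factor that keeps B cell identity, ranged from 111 to 136 FPKM in PP2Aa-deficient libraries and from 131 to 147 FPKM in WT libraries. Cd79b, which carries signals from surface antibody, ranged from 627 to 752 FPKM in PP2Aa-deficient libraries and from 744 to 765 FPKM in WT libraries. Ms4a1, which encodes CD20, ranged from 376 to 390.5 FPKM in PP2Aa-deficient libraries and from 276 to 371 FPKM in WT libraries, without overlap. Xist, the RNA that coats an inactivated X chromosome, stood at 84.5 FPKM in PP2Aa-deficient replicate 1 and 65.2 FPKM in WT replicate 1, and at no more than 0.116 FPKM in the other libraries. Each group therefore held 1 library with Xist and 2 without it, and the labels do not give the sex of the mice.

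The question put to the members was whether their level differs in B cells without PP2Aa. Fold changes are differences of log2(FPKM + 1), which understates the change of low genes, and were tested with limma over the 9425 genes that reached 1 FPKM in at least 3 libraries. Of the 39 members, 33 passed this filter. None of the 33 was called at a Benjamini-Hochberg adjusted p under 0.05, where 0 genes were called higher and 3 lower over the whole table, or 0.0318% of genes in either direction. The smallest adjusted limma p of a member was 0.351, for Oas3. Before adjustment 4 members had a limma p under 0.05, all above WT, beside 9.47% of all genes, of which 5.06% were above and 4.41% below. That number was 1 without PP2Aa-deficient replicate 1, 2 without WT replicate 2 and 9 without WT replicate 1. The genes called over the whole table numbered 13 without PP2Aa-deficient replicate 2, 5 without WT replicate 1 and 1 without WT replicate 2 or 3. With quantile normalization 7 genes were called higher and 4 lower, none of them members.

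The members nevertheless lay more often above WT than below it. The log2 change was above 0 for 26 of the 33, beside 48.9% of all genes tested, and the median was 0.22, beside -0.01 for all genes. In 6 of the 33 every PP2Aa-deficient library was above every WT library, beside 7.7% of all genes, and in 0 of the 33 every one was below, beside 7.4%. A member that reached the filter through 1 group alone had to differ, and this held for Oas3, at or above 1 FPKM in the PP2Aa-deficient libraries only. Without a filter 32 of the 39 members were above WT. The median was 0.12 without WT replicate 2 and 0.15 without PP2Aa-deficient replicate 1. In bulk RNA, fewer cells of a type and less RNA per cell cannot be told apart.

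**Figure D1:**
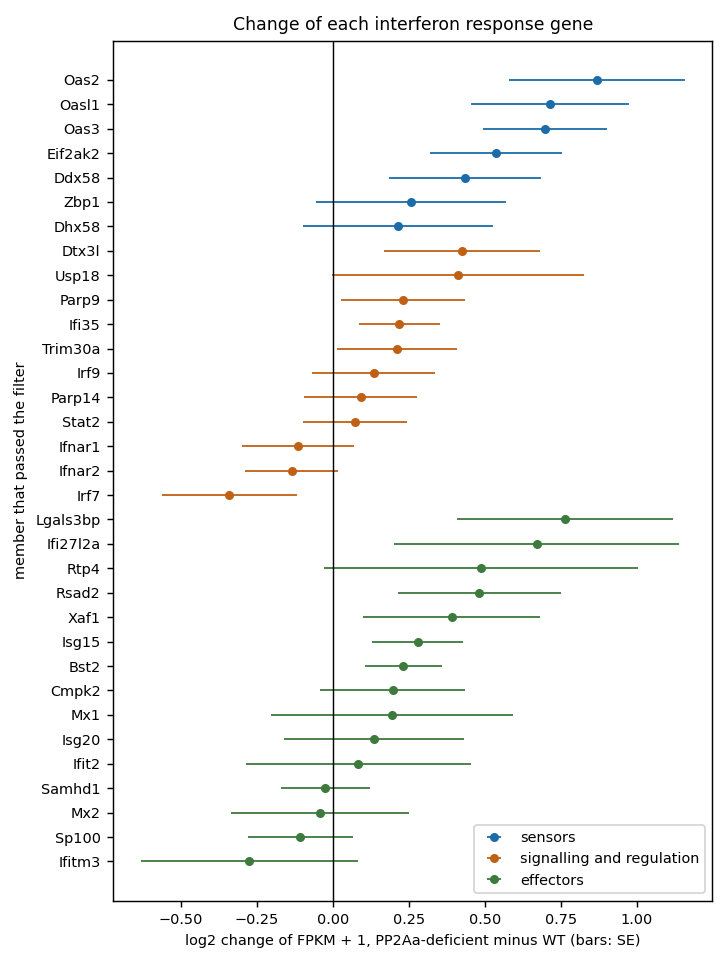
Log2 change of FPKM + 1 for the 33 members that passed the filter, PP2Aa-deficient minus WT, with bars for the SE of the limma fit, grouped by role. All 7 sensors lie right of 0, whereas Irf7, Ifnar1 and Ifnar2 among the signalling genes lie left of it.

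Sensors of viral RNA and DNA were the role with the highest median. The roles were assigned with earlier results of these data known, so their ranking only describes these values. All 7 sensors that passed the filter had values above WT, with a median log2 change of 0.54 and a range of 0.21 to 0.87, and 4 of the 7 had groups that did not overlap, beside 7.7% of all genes. These 4 include Oas3, which passed the filter through the PP2Aa-deficient libraries only. None was called after adjustment.

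Oas2, which makes the messenger 2-5A on double-stranded RNA, was at 5.48, 2.90 and 2.58 FPKM in PP2Aa-deficient libraries and at 2.13, 0.942 and 1.44 FPKM in WT libraries. The groups did not overlap, and replicate 1 was the highest library on each side. Its log2 change was 0.87 (SE 0.29, limma adjusted p = 0.405).

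Oas3, which is activated by long double-stranded RNA and adjoins Oas2 in the same gene cluster, was at 1.84, 1.75 and 1.99 FPKM in PP2Aa-deficient libraries and at 0.762, 0.759 and 0.773 FPKM in WT libraries. Its mean was 1.86 ± 0.121 FPKM in PP2Aa-deficient B cells and 0.765 ± 0.00745 FPKM in WT B cells (SD, n = 3 each). The groups did not overlap, as its passing the filter through the PP2Aa-deficient libraries only required. These values correspond to about 21.2, 16.6 and 22.2 fragments in PP2Aa-deficient libraries and 7.41, 13.0 and 9.23 fragments in WT libraries, so the SD of the WT values understates their counting error. The log2 change was 0.70 (SE 0.20, limma adjusted p = 0.351). The exact permutation test over the 6 libraries gave a two-sided p of 0.1, the smallest that 3 against 3 allows.

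Oasl1, a relative of the OAS enzymes that in mouse holds back the translation of Irf7, was at 12.2, 5.97 and 5.89 FPKM in PP2Aa-deficient libraries and at 4.18, 4.36 and 4.17 FPKM in WT libraries. The WT libraries were nearly level, and PP2Aa-deficient replicate 1 stood above the other 5 libraries. The log2 change was 0.71 (SE 0.26, limma adjusted p = 0.436). Without PP2Aa-deficient replicate 1 it was 0.40.

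Eif2ak2 encodes PKR, the kinase that stops translation when it binds double-stranded RNA. It was at 4.40, 3.42 and 3.83 FPKM in PP2Aa-deficient libraries and at 2.72, 1.61 and 2.89 FPKM in WT libraries, again with no overlap. The log2 change was 0.54 (SE 0.22, limma adjusted p = 0.489). It is the member that lies on the chromosome of Ppp2r1a.

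The RIG-I-like receptors, which detect viral RNA in the cytosol, were less separated. Ddx58, which encodes RIG-I, was at 12.1, 11.8 and 9.23 FPKM in PP2Aa-deficient libraries and at 4.98, 9.59 and 9.999 FPKM in WT libraries. WT replicate 1 was the lowest of the 6, and PP2Aa-deficient replicate 3 was below both other WT libraries. Dhx58, which encodes the regulator LGP2, overlapped between groups at 2.47 to 6.61 FPKM in PP2Aa-deficient libraries and 2.74 to 4.74 FPKM in WT libraries. Ifih1, which encodes MDA5, was at 0.678, 0.592 and 0.577 FPKM in PP2Aa-deficient libraries and at 0.564, 0.330 and 0.202 FPKM in WT libraries, below the filter in all 6.

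Zbp1, a sensor of Z-form nucleic acid that can trigger necroptosis, was at 21.5, 17.9 and 15.6 FPKM in PP2Aa-deficient libraries and at 26.8, 10.5 and 11.9 FPKM in WT libraries. WT replicate 1 was the highest of the 6. The remaining sensors, Oas1a and Oasl2, did not pass the filter. Oas1a reached no more than 1.36 FPKM in PP2Aa-deficient libraries and 0.535 FPKM in WT libraries, and Oasl2 no more than 2.13 and 0.968 FPKM in the same groups. Oas1a has near-identical neighbours in mouse, among which the counting could split its fragments.

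**Figure D2:**
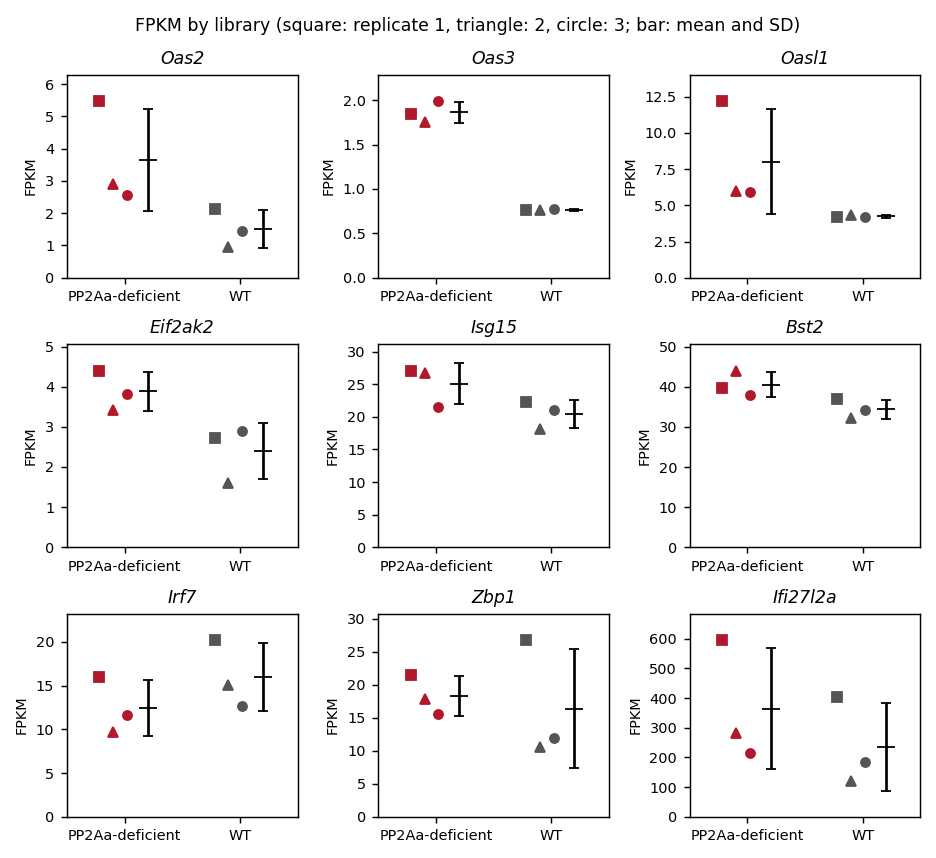
FPKM in each library for 9 members, PP2Aa-deficient on the left and WT on the right of each panel, with the mean and SD of 3 libraries as a bar. Oas3 is flat within each group at about 1.86 and 0.765 FPKM, whereas Ifi27l2a and Zbp1 vary within groups, with replicate 1 (square) the highest of each.

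Signalling and regulation held 11 members. All of them passed the filter, with 8 above WT and 3 below, a median log2 change of 0.13 and no member at an unadjusted limma p under 0.05.

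The receptor chains lay on the other side of WT from the sensors, within the spread of the libraries. Ifnar1 was at 12.1, 13.8 and 14.2 FPKM in PP2Aa-deficient libraries and at 12.8, 12.6 and 19.0 FPKM in WT libraries, a log2 change of -0.11 (SE 0.18). Ifnar2 was at 25.3, 24.2 and 18.5 FPKM in PP2Aa-deficient libraries and at 25.6, 23.0 and 25.8 FPKM in WT libraries, a log2 change of -0.14 (SE 0.15). For both chains the groups overlapped.

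The transcription factors of the response overlapped between groups. Stat2 was at 9.44, 10.5 and 7.52 FPKM in PP2Aa-deficient libraries and at 7.61, 9.19 and 9.02 FPKM in WT libraries. Irf9, the DNA-binding subunit of the complex, was at 20.5, 19.99 and 13.6 FPKM in PP2Aa-deficient libraries and at 19.7, 13.6 and 15.5 FPKM in WT libraries. Irf7, the factor that amplifies interferon production, had the lowest log2 change of the members, -0.34 (SE 0.22, limma adjusted p = 0.69). It was at 15.998, 9.73 and 11.6 FPKM in PP2Aa-deficient libraries and at 20.2, 15.03 and 12.7 FPKM in WT libraries, so the groups overlapped although Irf7 is itself a target of the response.

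Among the regulators, Ifi35, a protein that binds NMI, was at 36.2, 35.5 and 32.6 FPKM in PP2Aa-deficient libraries and at 31.5, 26.2 and 31.8 FPKM in WT libraries, without overlap (log2 change 0.22, SE 0.13). Usp18, which removes ISG15 from proteins and blocks the receptor, was at 2.70, 2.08 and 2.02 FPKM in PP2Aa-deficient libraries and at 4.05, 0.493 and 0.946 FPKM in WT libraries. WT replicate 1 again stood apart, and the PP2Aa-deficient values lay between it and the other WT libraries.

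Parp9 and Dtx3l encode partners of a ubiquitin ligase complex and overlap head to head in the genome, so fragments near their starts may be shared. Dtx3l was at 3.62, 2.64 and 4.13 FPKM in PP2Aa-deficient libraries and at 1.38, 3.09 and 2.66 FPKM in WT libraries. Parp9 was at 7.19, 5.15 and 7.32 FPKM in PP2Aa-deficient libraries and at 4.39, 5.22 and 6.72 FPKM in WT libraries. Both overlapped between groups. Parp14, a related enzyme gene, ranged from 3.08 to 3.60 FPKM in PP2Aa-deficient libraries and from 2.48 to 3.48 FPKM in WT libraries. Trim30a, a mouse regulator of Toll-like receptor signalling, was at 14.2, 8.81 and 8.89 FPKM in PP2Aa-deficient libraries and at 8.38, 8.98 and 9.18 FPKM in WT libraries. PP2Aa-deficient replicate 1 alone stood apart.

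Effectors spread over the widest range of levels. Of 18 members 15 passed the filter, of which 11 were above WT and 4 below, with a median log2 change of 0.20 and no member at an unadjusted limma p under 0.05.

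Among the more abundant effectors, Bst2, which encodes tetherin, a protein that holds budding virus on the cell surface, was at 39.7, 44.1 and 37.9 FPKM in PP2Aa-deficient libraries and at 36.9, 32.1 and 34.1 FPKM in WT libraries. The groups did not overlap, by a narrow margin (log2 change 0.23, SE 0.13, limma adjusted p = 0.616). Isg15, the ubiquitin-like protein attached to others during the response, was at 27.1, 26.7 and 21.6 FPKM in PP2Aa-deficient libraries and at 22.3, 18.1 and 21.1 FPKM in WT libraries. Its groups overlapped at PP2Aa-deficient replicate 3 and WT replicate 1 (log2 change 0.28, SE 0.15).

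Ifi27l2a, a small mitochondrial protein gene and the most abundant member, was at 595, 284 and 214 FPKM in PP2Aa-deficient libraries and at 402, 120 and 185 FPKM in WT libraries. Replicate 1 was the highest on each side, and WT replicate 1 was above both other PP2Aa-deficient libraries. The log2 change was 0.67 (SE 0.47, limma adjusted p = 0.72). Ifi27l2a overlaps its relative Ifi27, so the counting could split fragments between them.

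Lgals3bp, a secreted glycoprotein gene, was at 15.9, 6.06 and 6.54 FPKM in PP2Aa-deficient libraries and at 6.81, 3.36 and 4.44 FPKM in WT libraries. It had the highest log2 change of the effectors, 0.76 (SE 0.36, limma adjusted p = 0.543), and its groups overlapped through WT replicate 1. Isg20, an RNA exonuclease gene, was at 16.5, 20.2 and 20.5 FPKM in PP2Aa-deficient libraries and at 29.8, 13.4 and 12.6 FPKM in WT libraries. The order of the groups was thus opposite in replicate 1 and in the other libraries.

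Sp100 and Samhd1 are expressed in resting B cells as well. Sp100, a nuclear body protein gene, was at 49.6, 53.4 and 37.9 FPKM in PP2Aa-deficient libraries and at 44.02, 48.01 and 59.7 FPKM in WT libraries. Samhd1, which encodes an enzyme that removes the nucleotides viruses need, was at 42.03, 40.5 and 37.3 FPKM in PP2Aa-deficient libraries and at 34.3, 41.4 and 47.2 FPKM in WT libraries. Both overlapped, with log2 changes of -0.11 (SE 0.17) and -0.03 (SE 0.15). Ifitm3, which blocks virus entry at membranes, was at 3.44, 6.93 and 12.7 FPKM in PP2Aa-deficient libraries and at 7.74, 8.01 and 9.87 FPKM in WT libraries, spreading more within the PP2Aa-deficient group than between groups. Ifitm genes are close copies, so its fragments may be split.

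The classical antiviral effectors were near the floor in both groups. Rsad2, which encodes viperin, was at 2.24, 1.24 and 1.05 FPKM in PP2Aa-deficient libraries and at 1.09, 0.757 and 0.491 FPKM in WT libraries, overlapping by a small margin (log2 change 0.48, SE 0.27). Mx1, at 2.89, 1.06 and 1.65 FPKM in PP2Aa-deficient libraries and 3.22, 0.502 and 1.24 FPKM in WT libraries, is annotated in RefSeq as a transcribed pseudogene in this strain, as is Mx2. Mx2 ranged from 0.410 to 1.86 FPKM in PP2Aa-deficient libraries and from 0.976 to 1.25 FPKM in WT libraries.

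Ifit1, Ifit3 and Ifi44 did not pass the filter and held at least 1 library listed at 0. Ifit1, which binds viral RNA lacking a host cap, was listed at 0.917, 0.185 and 0.789 FPKM in PP2Aa-deficient libraries and at 0, 0.103 and 0.295 FPKM in WT libraries, about 5.94 fragments at most. Ifit3 reached 0.771 FPKM in PP2Aa-deficient libraries and 0.250 FPKM in WT libraries, and Ifi44 reached 0.684 and 0.162 FPKM in the same groups, with 4 libraries at 0. Ifit2 passed at 0.604 to 2.53 FPKM in PP2Aa-deficient libraries and 0.591 to 2.31 FPKM in WT libraries. Among the rest, Xaf1, a gene linked to apoptosis, ranged from 2.79 to 6.40 FPKM in PP2Aa-deficient libraries and from 2.43 to 4.49 FPKM in WT libraries. Rtp4 ranged from 0.881 to 7.12 FPKM in PP2Aa-deficient libraries and from 0.823 to 3.01 FPKM in WT libraries, and it overlaps Masp1. Cmpk2, a mitochondrial nucleotide kinase gene beside Rsad2, ranged from 1.72 to 2.93 FPKM in PP2Aa-deficient libraries and from 1.496 to 2.63 FPKM in WT libraries.

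**Figure D3:**
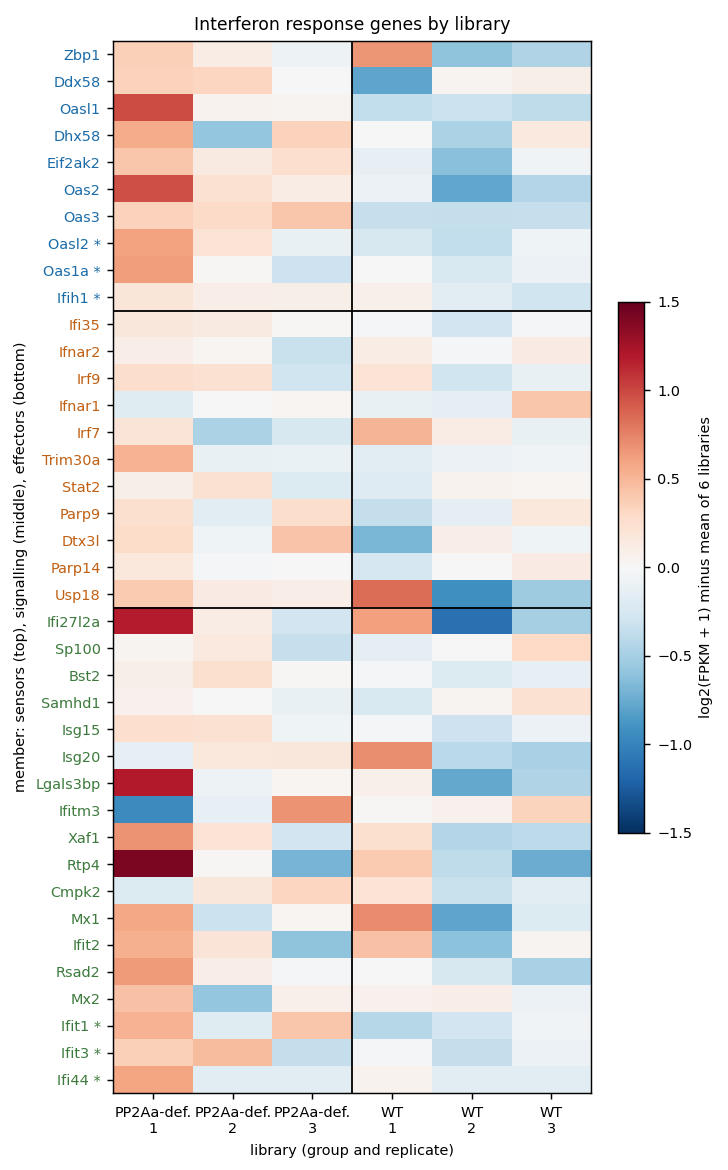
Log2(FPKM + 1) of each member in each library minus its mean over the 6 libraries, as colour, with PP2Aa-deficient libraries on the left and WT on the right and an asterisk on the 6 members that did not pass the filter. PP2Aa-deficient replicate 1 is red for most members, and WT replicate 1 is red for Zbp1, Usp18, Ifi27l2a, Isg20 and Mx1.

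The members varied between libraries within a group as well as between groups. PP2Aa-deficient replicate 1 was the highest of its group for 23 of the 33 members, beside 35.6% of all genes tested. WT replicate 1 was the highest of its group for 16 of the 33, beside 34.2% of all genes, and for 13 members replicate 1 was the highest on both sides, beside 12.5% of all genes. These 13 were Zbp1, Oas2, Irf7, Irf9, Usp18, Isg15, Ifit2, Mx1, Rsad2, Rtp4, Xaf1, Ifi27l2a and Lgals3bp. Both of these libraries are the ones with Xist. At the other end, WT replicate 2, the deepest library, was the lowest of its group for 18 of the 33 members, beside 29.0% of all genes. The part of Xist class and of depth in the levels was not tested apart from the values given here.

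Within each class most members were higher on the PP2Aa-deficient side. The classes are parts of the same 6 libraries, so this restates the shift above and is not a second result. Between the pair of libraries with Xist, 24 of the 33 members were higher in the PP2Aa-deficient library, beside 52.4% of all genes, with a median log2 difference of 0.28, beside 0.02. Among the 4 libraries without Xist, 24 of the 33 were higher on average in the PP2Aa-deficient pair, beside 46.4% of all genes, with a median of 0.22, beside -0.03. The count higher in both classes was 18 of 33, beside 26.0% of all genes. Oas3 differed by 0.69 in the libraries with Xist and 0.70 in those without, and Eif2ak2 by 0.54 in each. For Oas2 the differences were 1.05 and 0.78 and for Oasl1 1.35 and 0.40, in the same order. Over all libraries the groups of these genes did not overlap, so their positive sign in each class was fixed in advance. Oas3 also passed the filter through the PP2Aa-deficient libraries only. With 1 and 2 libraries per group these within-class values carry no test.

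**Figure D4:**
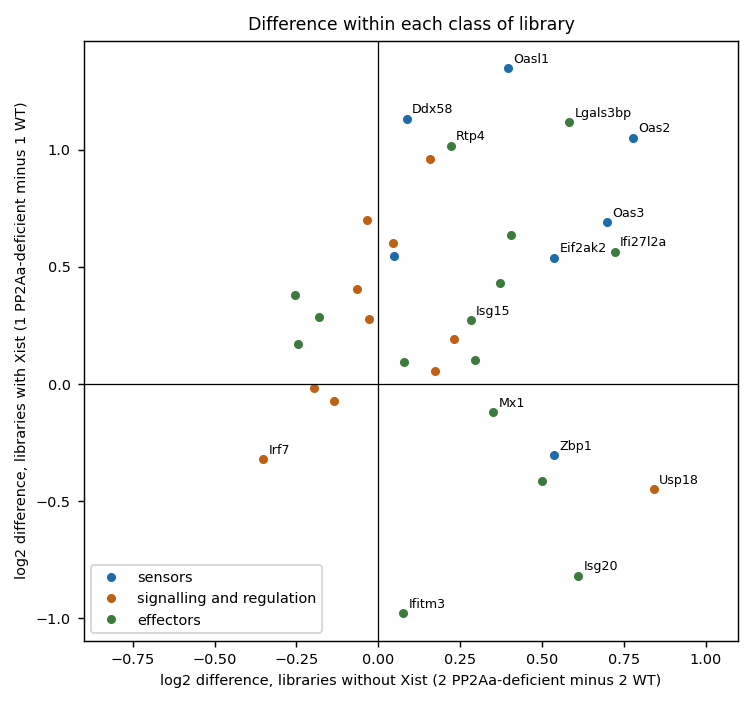
Log2 difference of FPKM + 1, PP2Aa-deficient minus WT, in the pair of libraries with Xist (vertical) and in the 4 libraries without it (horizontal), for the 33 members that passed the filter. Oas2, Oas3, Oasl1 and Eif2ak2 lie above 0 on both axes, which was fixed because every PP2Aa-deficient library was above every WT library. Zbp1, Usp18 and Isg20 lie below 0 vertically and above 0 horizontally.

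Other genes of the pathway were read from 5 further lists that hold no member, 134 names in all, of which 131 were in the table and 91 passed the filter. Over these genes 47 were above WT and 44 below, with a median log2 change of 0.01, and none was called by limma. Before adjustment 2 of the 91 above WT and 8 below it had a limma p under 0.05, beside 5.06% of all genes above and 4.41% below. The groups did not overlap in 3 of the 91 above WT, beside 7.7% of all genes, and in 13 below it, beside 7.4%.

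Interferon genes themselves were close to silent. Of 19 interferon genes 17 were listed at 0 in all 6 libraries. Ifna4 was listed at 1.16 FPKM in PP2Aa-deficient replicate 1 and at 0 in the other libraries, about 1.59 fragments, and Ifng did not exceed 1.25 FPKM in PP2Aa-deficient libraries and 1.90 FPKM in WT libraries.

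The list of 55 other interferon-stimulated genes had 39 that passed, 23 above WT and 16 below, with a median log2 change of 0.04. The groups did not overlap in 2 of the 39 above WT, beside 7.7% of all genes, and in 5 below it, beside 7.4%. Herc6, the mouse ligase that attaches ISG15, was at 3.27, 2.33 and 2.28 FPKM in PP2Aa-deficient libraries and at 1.69, 1.54 and 1.23 FPKM in WT libraries, without overlap. Ly6a, which encodes the surface antigen Sca-1, was at 201, 146 and 152 FPKM in PP2Aa-deficient libraries and at 166, 94.6 and 89.5 FPKM in WT libraries, with overlap through WT replicate 1. Ifi30, a thiol reductase gene of antigen processing that interferon-gamma induces, was at 182, 201 and 183 FPKM in PP2Aa-deficient libraries and at 331, 237 and 235 FPKM in WT libraries, lower without overlap (log2 change -0.49, SE 0.15, limma adjusted p = 0.374).

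Targets of interferon-gamma lay on both sides of WT. Of 13 that passed, 5 were above WT and 8 below, beside 48.9% of all genes tested above it. The median log2 change was -0.11, and none had an unadjusted limma p under 0.05. Irf1, their leading transcription factor gene, averaged 59 ± 8.55 FPKM in PP2Aa-deficient B cells and 69.8 ± 5.12 FPKM in WT B cells (SD, n = 3 each). Ciita, the activator of MHC class II genes, averaged 29.5 ± 5.35 and 33.3 ± 2.05 FPKM, and Gbp4, a guanylate-binding protein gene, 2.86 ± 0.169 and 2.38 ± 0.721 FPKM, in the same groups. Whether this list and the members differ from each other was not tested.

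Receptor and JAK-STAT genes other than the members were mostly below WT. Of 18 genes 6 were above WT and 12 below, with a median log2 change of -0.08, and the groups did not overlap in 6 below WT, beside 7.4% of all genes, and in 1 above it, beside 7.7%. The 1 above was Tyk2, the receptor kinase gene, named after its values were seen, at 7.86, 7.73 and 8.05 FPKM in PP2Aa-deficient libraries and at 5.603, 6.14 and 6.44 FPKM in WT libraries (log2 change 0.33, SE 0.15, limma adjusted p = 0.53). Stat3, a factor that can restrain the response, was at 22.7, 20.4 and 23.8 FPKM in PP2Aa-deficient libraries and at 27.1, 30.2 and 30.9 FPKM in WT libraries (log2 change -0.38, SE 0.13, limma adjusted p = 0.414). Ptpn1, a phosphatase gene that acts on JAK2 and TYK2, was at 26.2, 26.1 and 23.9 FPKM in PP2Aa-deficient libraries and at 33.1, 31.97 and 30.9 FPKM in WT libraries. Ifngr1, a chain of the interferon-gamma receptor, was at 33.9, 39.96 and 41.002 FPKM in PP2Aa-deficient libraries and at 43.6, 49.9 and 50.8 FPKM in WT libraries. Each of these 3 genes was lower in every PP2Aa-deficient library than in every WT library, and none passed adjustment.

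Genes of sensing and production upstream of interferon gave 13 above WT and 9 below among 22 that passed, with a median log2 change of 0.03. Rnaseh2b, a subunit of the enzyme that removes RNA from RNA-DNA hybrids, was at 1.89, 3.43 and 5.83 FPKM in PP2Aa-deficient libraries and at 8.86, 6.08 and 7.27 FPKM in WT libraries (log2 change -0.91, SE 0.30, limma adjusted p = 0.408). Tbk1, the kinase that activates IRF3, averaged 11.6 ± 1.34 FPKM in PP2Aa-deficient B cells and 15.2 ± 1.38 FPKM in WT B cells (SD, n = 3 each). Irf8, a B cell and dendritic cell transcription factor gene, averaged 125 ± 12.2 FPKM in PP2Aa-deficient B cells and 154 ± 13.99 FPKM in WT B cells (SD, n = 3 each).

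Cells other than B cells also express many members, and their markers were read beside them. Macrophage markers, 6 of 7 names present, summed to 2.85 to 2.96 FPKM in PP2Aa-deficient libraries and 4.39 to 13.2 FPKM in WT libraries. Gata6 was listed at 0 in all 6 libraries. Much of the WT sums was Emr1, which lies on the chromosome of Ppp2r1a. Emr1 was at 0.242, 1.91 and 0.250 FPKM in PP2Aa-deficient libraries and at 8.59, 2.93 and 3.84 FPKM in WT libraries. Cd5l, the other macrophage marker that passed the filter, had a log2 change of 0.13 (SE 0.35), with overlap. Monocyte markers, 7 of 7 present, summed to 12.4 to 21.5 FPKM in PP2Aa-deficient libraries and 15.5 to 27.6 FPKM in WT libraries. Markers of plasmacytoid dendritic cells, the main producers of interferon, summed to 95.2 to 115 FPKM in PP2Aa-deficient libraries and 109 to 118 FPKM in WT libraries, nearly all of it Pld4, which B cells express, and Siglech did not exceed 1.02 FPKM. T cell markers summed to 18.5 to 25.9 FPKM in PP2Aa-deficient libraries and 18.3 to 34.4 FPKM in WT libraries, natural killer markers to at most 1.64 and 2.30 FPKM, and neutrophil markers to at most 6.62 and 6.57 FPKM, in the same groups. The sums of macrophage, monocyte and T cell markers were highest in WT replicate 1, where Zbp1, Irf7, Usp18, Isg20 and Mx1 were also the highest of the 6 libraries. PP2Aa-deficient replicate 1, the highest of its group for 23 of the 33 members, had the lowest T cell sum of its group, 18.5 FPKM. Its macrophage sum was 2.85 FPKM, beside 2.96 and 2.86 FPKM in PP2Aa-deficient replicates 2 and 3. Its neutrophil sum of 6.62 FPKM was the highest of the 6, beside 6.57 FPKM in WT replicate 1. Its monocyte sum was 21.3 FPKM, beside 21.5 FPKM in PP2Aa-deficient replicate 3. Its plasmacytoid dendritic cell sum, 115 FPKM, was the highest of its group. The part of these cells in the members' levels was not tested.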

How the data were processed

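RNA was measured in 6 libraries by a low-input Smart-seq2 method, per the labels' protocols, grouped by source name. The authors deposited 1 table of FPKM values in the layout of a Cuffnorm table, with the library of each column named in its header lines. The submitters' processing notes list Cuffnorm, Cufflinks 2.2.1, TopHat2 2.0.10 and BWA without their roles. Genome build, annotation, scaling and use of strand: not given in the sources used here. Without strand, overlapping genes cannot be told apart. In a deposited plate sheet the PP2Aa-deficient wells appear as miRNA targets and the WT wells as miRNA controls, which differs from the genotype labels used here and is not settled.

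Of 22815 rows, 27 carried dates in place of symbols and were left out. Genes with at least 1 FPKM in at least 3 libraries were tested as log2(FPKM + 1) with limma 3.58.1, run in R 4.3.3. The fit used a mean-variance trend, two-sided p-values and Benjamini-Hochberg adjustment at 0.05. This step was tested on simulated data, where changes larger than any member's in the main fit were planted, only in more abundant genes. The simulation therefore does not show whether changes of the members' size could be called. Summaries and figures used Python 3.11.15, pandas 2.3.3, numpy 2.4.6 and matplotlib 3.10.9. Relative depth is the most common ratio of values under 2 FPKM between a library and WT replicate 1. Fragments were approximated with the longest GENCODE M21 transcript, whose build may differ from the authors'. A value of 0 can be a failed estimate. Members, roles and lists were chosen with earlier results of these data known. Every member may be named, with Ppp2r1a and the 3 genes of smallest p of each other list. Siglech, Gata6, Ifna4, Xist and Tyk2 fall outside this rule and were chosen after their values were seen. Genes that stand in 2 of the other lists were counted once in totals. Some items are not reported here. Alternatives left out each library in turn, dropped the trend or the filter, raised the filter to 5 FPKM, added array weights, scaled by quantiles or median ratios, or used pseudocounts of 0.1 and 0.5. After seeing the data, terms for relative depth and for Xist were added.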

Additional observations from a re-analysis of the deposited data

Results flagged for a closer look

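In 6 of the 33 members the difference in the pair of libraries with Xist had the opposite sign to that in the 4 libraries without it, and the groups did not overlap among those 4, which drew attention to them. The difference between the classes was not tested, and the class with Xist held 1 library per group. In 4 of them PP2Aa-deficient replicate 1 was below WT replicate 1 while both other PP2Aa-deficient libraries were above both other WT libraries. This pattern held for 12.1% of the 33 members, beside 7.68% of all genes tested. The log2 difference in the pair with Xist was -0.30 for Zbp1, -0.45 for Usp18, -0.82 for Isg20 and -0.41 for Cmpk2. In the other libraries it was 0.54 for Zbp1, 0.84 for Usp18, 0.61 for Isg20 and 0.50 for Cmpk2. In Trim30a and Samhd1 the sides were reversed, which held for 6.06% of the 33 members, beside 11.1% of all genes. Their log2 differences were 0.70 and 0.28 in the pair with Xist and -0.03 and -0.18 in the other libraries. The members' share was above that of all genes for the first pattern and below it for the second. The 6 are therefore not read as a trait of the members.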

How the results depend on the processing

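No member and no gene of the other interferon lists was called by limma under any of the 16 alternatives, at which the smallest adjusted p of a member was 0.201. Members above WT numbered 22 to 28 when 1 library was left out, and 13 of 19 at a filter of 5 FPKM, where fewer genes were tested. When 1 library was left out, their median log2 change ranged from 0.12 without WT replicate 2 to 0.30 without PP2Aa-deficient replicate 3, and it was 0.15 with a term for relative depth. Members at an unadjusted limma p under 0.05 numbered 1 without PP2Aa-deficient replicate 1, 2 without WT replicate 2 and 9 without WT replicate 1. Oas2, Oas3, Oasl1 and Eif2ak2 stayed above WT in the 15, 12, 16 and 15 alternatives that tested them, with an unadjusted limma p under 0.05 in 12, 12, 14 and 10. These genes were picked for their unadjusted limma p in the same data, and their groups did not overlap. Leaving out a library could therefore not turn their direction, and these counts are no independent support. Oas3 passed the filter through the PP2Aa-deficient libraries only. Leaving out any of them, or filtering at 5 FPKM, therefore removed it from the test, so its count does not cover those settings. The limma adjusted p of 0.201 was that of Oas3. A term for relative depth turned the direction of Zbp1 (log2 change -0.028), Irf9 (-0.0064), Isg20 (-0.13), Ifit2 (-0.19), Mx1 (-0.10), Mx2 (0.066) and Samhd1 (0.025), and the cause was not tested. Leaving out 1 library turned the direction of some member 18 times, and 19 of the 33 members were reversed under no alternative. Other interferon genes above WT numbered 36 to 48 when 1 library was left out. Genes called over the whole table numbered 5 at a filter of 5 FPKM, 11 with quantile normalization, 9 with no trend and 16 with array weights, and between 1 and 13 when 1 library was left out. The log2 change of Ppp2r1a ranged from -1.48 to -0.998 when 1 library was left out, and it was called without PP2Aa-deficient replicate 2 (limma adjusted p = 0.00555). No paired analysis was possible because the labels give no replicate numbers that the groups share. Ifit1, Ifit3 and Ifi44 rest on at most 6.78 fragments in a library, and a limit of depth on the other members was not tested.

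For the members whose direction turned when 1 library was left out, the lowest and highest log2 changes were -0.0093 and 0.56 for Dhx58, -0.21 and 0.069 for Ifnar1, -0.022 and 0.19 for Stat2, -0.0090 and 0.17 for Parp14, -0.077 and 0.51 for Isg20, -0.20 and 0.40 for Ifit2, -0.68 and 0.14 for Ifitm3, -0.15 and 0.59 for Mx1, -0.27 and 0.24 for Mx2, -0.10 and 0.96 for Rtp4, -0.21 and 0.037 for Sp100 and -0.14 and 0.080 for Samhd1.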
